A study of Caenorhabditis elegans with 12 samples.

Results

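The genes described here encode the FMRFamide-like peptides (flp) and the neuropeptide-like proteins (nlp) of Caenorhabditis elegans. They were taken as every gene whose symbol in the array annotation starts with flp- or nlp- followed by a digit, measured by a probe set that names 1 gene only, and each gene was read from its brightest probe set over the 12 arrays. The nlp-27 to nlp-34 group, which acts mainly as antimicrobial peptides of the epidermis, was left out, 7 of them having a single-gene probe set. The rule gave 76 genes, 25 flp and 51 nlp, of 17118 genes with a single-gene probe set. The names nlp-4 and nlp-76 occurred only on probe sets shared with other genes and were not used.

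Neuropeptides are short signalling peptides cut from a longer precursor, often amidated, packed into dense core vesicles and released from neurons and some other secretory cells. Most act through G protein-coupled receptors and change how a circuit works rather than carrying a fast signal across a synapse. FMRFamide-like peptides end in an arginine, a phenylalanine and an amide, while the nlp class gathers peptide precursors of many unrelated families. In the nematode these peptides are known for setting locomotion, egg laying, feeding, sleep-like quiescence, fat use and responses to food and odours.

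The animals were wild-type N2 (Bristol), with no transgene or mutation named. Larvae of the first stage, 12 h old, were placed for 48 h in a control solution or in 1 of 3 silver solutions, each at the concentration that reduces reproduction by 30%, which equalises their effect on brood output while their doses may differ. The 3 silver forms were artificially aged (sulfidized) nanoparticles (silver partly turned to silver sulfide), pristine nanoparticles, and silver nitrate, a soluble salt that gives silver ions. Each of the 4 groups had 3 arrays, hybridised with RNA from populations of 2000 to 3000 whole animals collected at 1 time point. Nothing in the labels says that the replicates came from separate cultures, and p-values here measure the array-to-array spread, which may be technical. Since whole animals were extracted, fewer cells of a type and less RNA per cell cannot be told apart.

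The values are array signal units after each array was brought to a common median, and the number of arrays limits the precision. The members were bright for this array: 67 of the 76 (24 flp and 43 nlp) lay above the median probe set brightness of 130.1 signal units, against 50.4% of all genes. Of the 76, 73 stayed above the floor of 16 signal units on every array, nlp-22 and nlp-39 were at the floor on some arrays, and flp-23 was at the floor on all of them, so flp-23 has only an upper bound and a difference of 0. Mean signals ran from 4.5 units for flp-23 to 11948.1 for flp-1, but probe sets differ in how they bind, so signals do not rank the genes by transcript level. The 13 general neuronal markers, such as the synaptic genes rab-3, snb-1 and unc-13, were all measured, and none of them was at the floor on every array.

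Under silver most flp and nlp genes read lower than in control animals, but by small amounts, and none passed the test. A gene was called when limma's adjusted p, taken over all 22548 probe sets, was under 0.05. By that rule 0 of the 76 were called with aged particles, pristine particles or silver nitrate against control, where 0.00887%, 0.00443% and 0.133% of all probe sets were called. Likewise 0 were called between aged and pristine particles, between aged particles and silver nitrate, or between pristine particles and silver nitrate, where 0.111%, 0.253% and 0.00443% of probe sets were called. The F test over the 3 exposures called 0 members and 0.0621% of probe sets. The differences are therefore given below as values, in the direction lower or higher, with their standard errors.

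Of the 76 members, 62 were lower with aged particles, 60 with pristine particles and 70 with silver nitrate. Over all genes the shares lower were 53.82%, 48.96% and 51.83% in the same order. The 3 comparisons share the same control arrays and are not independent. The median log2 differences were -0.13, -0.20 and -0.21, while the medians over all 17118 genes were -0.02, 0 and -0.01. There were 52 members (68.4%) that were lower in all 3 exposures, a share that was 28% over all genes and that rests on the shared controls.

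Control replicate 2 stood apart for these genes. It was the highest of the 3 control arrays in 60 members (78.9%, against 38.4% of all genes) and the highest of all 12 arrays in 49 members (64.5%, against 15.6% of all genes), 18 of them flp and 31 nlp. On each array the members' median log2 distance from their control means was -0.11, 0.18 and -0.07 for control replicates 1 to 3, and the same median over all genes lay between -0.02 and 0.01 on those arrays. It was -0.13, -0.11 and -0.14 with aged particles, -0.27, -0.16 and -0.17 with pristine particles, and -0.25, -0.30 and -0.14 with silver nitrate. All 9 exposed arrays were thus below control replicates 2 and 3, while control replicate 1 lay level with aged replicate 2 and above the other 8. Without control replicate 2 the member medians were -0.04 with aged particles, -0.10 with pristine particles and -0.14 with silver nitrate. The members lower were then 47, 55 and 61, where 50.04%, 45.6% and 49.3% of all genes were lower. Class counts, class medians and counts at an unadjusted p against control are given again without it below, while counts of separated arrays, the members lower in all 3 exposures and the related gene lists use all 3 controls.

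**Figure D1:**
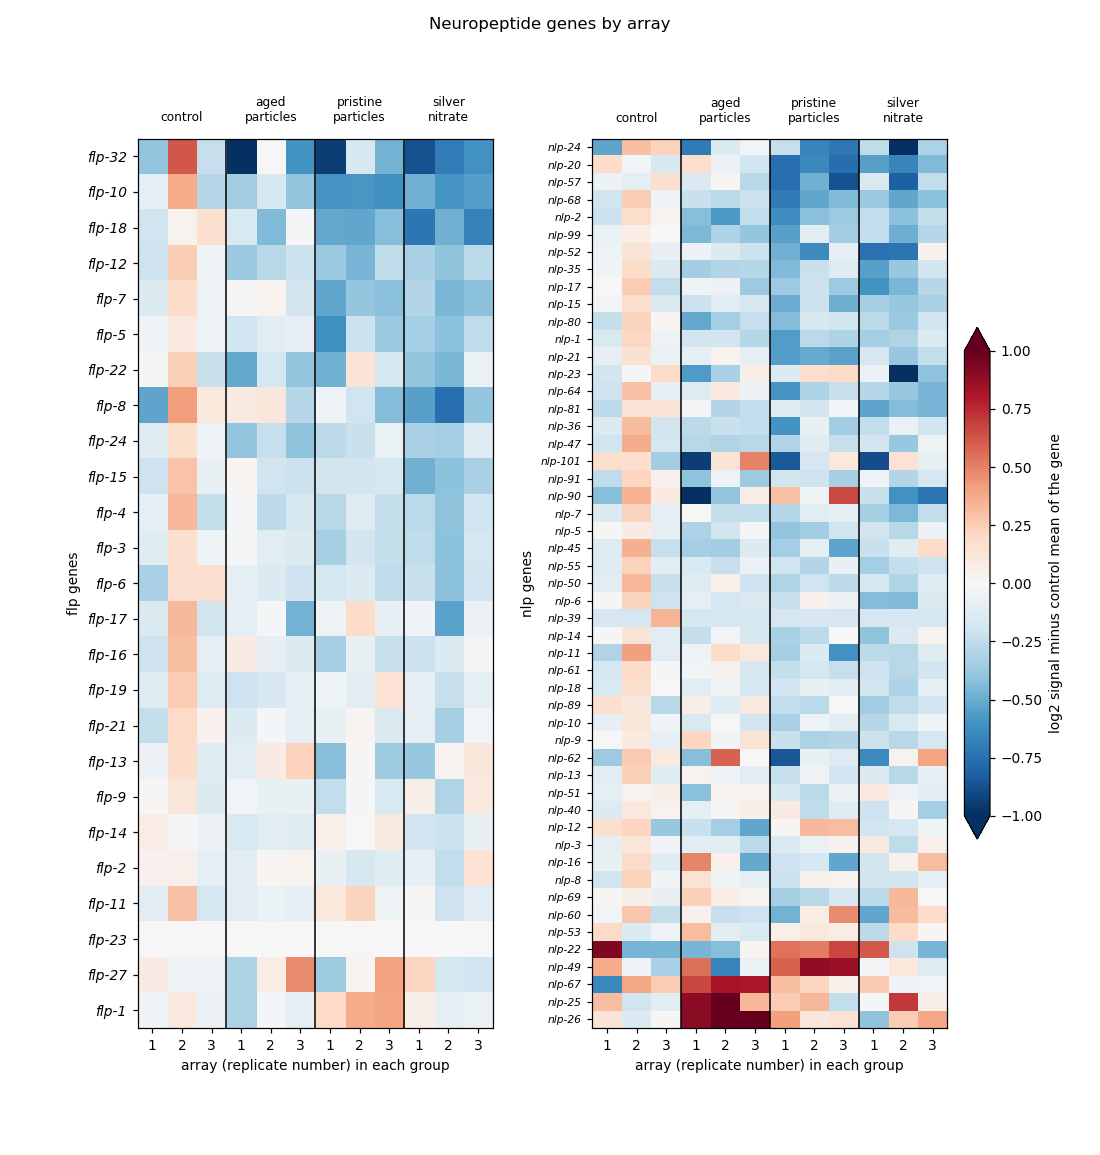
Each row is a flp or nlp gene and each column an array, with colour giving log2 signal minus the gene's control mean (blue lower, red higher). The column of control replicate 2 is the highest of the 12 arrays for 49 of the 76 genes, and the exposed arrays are mostly below the control mean.

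Of all members, nlp-21 and nlp-20 gave the smallest p in any exposure, both with pristine particles, together with lower values of several flp genes and higher values of flp-1 and nlp-49. Of the 76, 60 were lower and 15 higher, with 19 of 25 flp lower (median log2 difference -0.18) and 41 of 51 nlp lower (median -0.22). At an unadjusted p under 0.05, 18 members were lower (6 flp, 12 nlp) and 2 higher, where 4.8% of all genes were lower and 4.25% higher. In 21 members every pristine array lay below every control array, and in 2 every pristine array lay above, where the shares of all genes were 6.19% and 5.57%. Without control replicate 2, 17 of 25 flp (median -0.06) and 38 of 51 nlp (median -0.13) were lower, and at that p 15 members were lower and 2 higher, where 3.99% of all genes were lower. Without control replicate 1, 29 were lower at that p, where 5.32% of all genes were. Without pristine replicate 1, the lowest of the 12 arrays in 20 members, 14 were lower at that p, where 3.98% of all genes were. The smallest adjusted p of a member was 0.103.

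Silver nitrate gave the most members with low values. Of the 76, 70 were lower and 5 higher: 24 of 25 flp (median -0.26), the other being flp-23 at the floor, and 46 of 51 nlp (median -0.20). At an unadjusted p under 0.05, 27 members were lower (10 flp, 17 nlp) and 0 higher, where 7.34% of all genes were lower and 5.3% higher. In 24 members every silver nitrate array lay below every control array and in 0 every array lay above, where the shares of all genes were 8.09% and 6.12%. Without control replicate 2, 19 of 25 flp (median -0.17) and 42 of 51 nlp (median -0.13) were lower, and at that p 16 members were lower, where 5.84% of all genes were. Without silver nitrate replicate 2, the lowest of the 12 arrays in 19 members, 15 were lower at that p, where 5.11% of all genes were. The smallest adjusted p was 0.102, for flp-18.

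With aged particles most flp genes read a little below control, and 3 nlp genes, nlp-25, nlp-26 and nlp-67, read above it on every array. Of the 76, 62 were lower and 13 higher, with 22 of 25 flp lower and 40 of 51 nlp lower, both classes having a median log2 difference of -0.13. At an unadjusted p under 0.05, 8 members were lower (3 flp, 5 nlp) and 3 higher, all 3 of them nlp, where 4.66% of all genes were lower and 3.59% higher. In 12 members every aged array lay below every control array and in 3 every aged array lay above, where the shares of all genes were 6.61% and 4.5%. Without control replicate 2 only 3 members were lower at that p and 2 higher, where 4.25% of all genes were lower, while 12 of 25 flp (median 0) and 35 of 51 nlp (median -0.05) were lower. Without control replicate 1 there were 13 lower, where 5.09% of all genes were. Without aged replicate 1 there were 4 (5.26% of members), where 4.22% of all genes were. The smallest adjusted p was 0.195, for nlp-26.

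**Figure D2:**
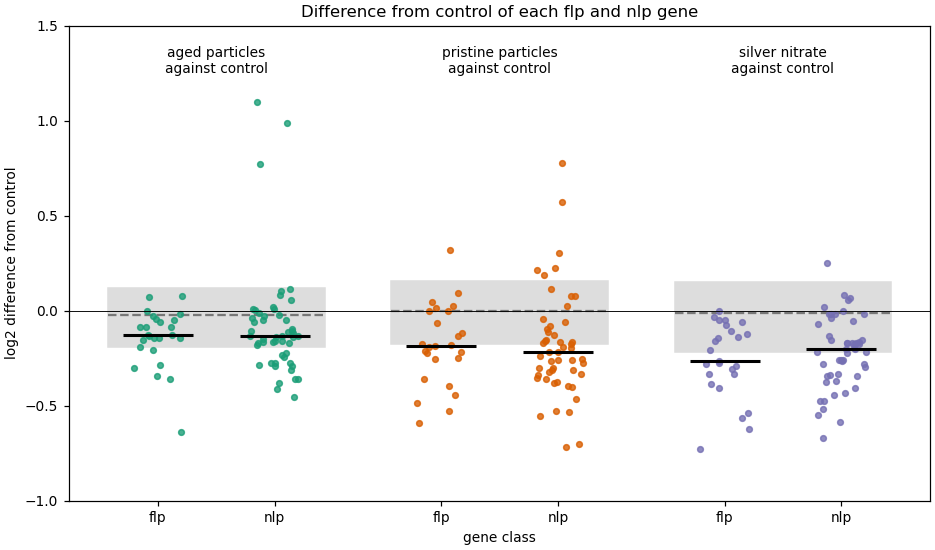
Each point is 1 gene, placed by its log2 difference from control, for the flp and nlp classes in each exposure, with a black line at the class median, a grey box over the middle quartiles of all 17118 genes and a dashed line at their median. The flp medians are -0.13 with aged particles, -0.18 with pristine particles and -0.26 with silver nitrate, and the nlp genes spread further, from -0.72 (nlp-20, pristine particles) to 1.10 (nlp-26, aged particles).

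The members with the smallest p in the F test over the 3 exposures were nlp-20 and nlp-21, with adjusted p of 0.0681 and 0.0798. On the control arrays nlp-20 read 8209, 7081 and 6458 signal units, with aged particles 8146, 6930.4 and 6318, with pristine particles 4286, 4613 and 4247, and with silver nitrate 4954, 4577 and 5309. Control and aged arrays overlapped, and every pristine and every silver nitrate array lay below all of them. The log2 difference of nlp-20 from control was -0.72 ± 0.11 (SE) with pristine particles (1.65-fold lower, adjusted p = 0.131), -0.55 ± 0.11 with silver nitrate (1.46-fold lower, adjusted p = 0.108) and -0.03 ± 0.11 with aged particles.

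On the control arrays nlp-21 read 1749.9, 2059.7 and 1767 units, with aged particles 1744, 1903 and 1733, with pristine particles 1267, 1307 and 1282, and with silver nitrate 1654, 1429 and 1571. The pristine arrays agreed closely among themselves and lay below all 9 others, and the silver nitrate arrays lay between the pristine arrays and the rest. Its log2 differences were -0.53 ± 0.08 with pristine particles (adjusted p = 0.103), -0.26 ± 0.08 with silver nitrate (adjusted p = 0.228) and -0.05 ± 0.08 with aged particles. For nlp-21 pristine particles were also below silver nitrate, by -0.27 ± 0.08 on the log2 scale (adjusted p = 0.323).

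**Figure D3:**
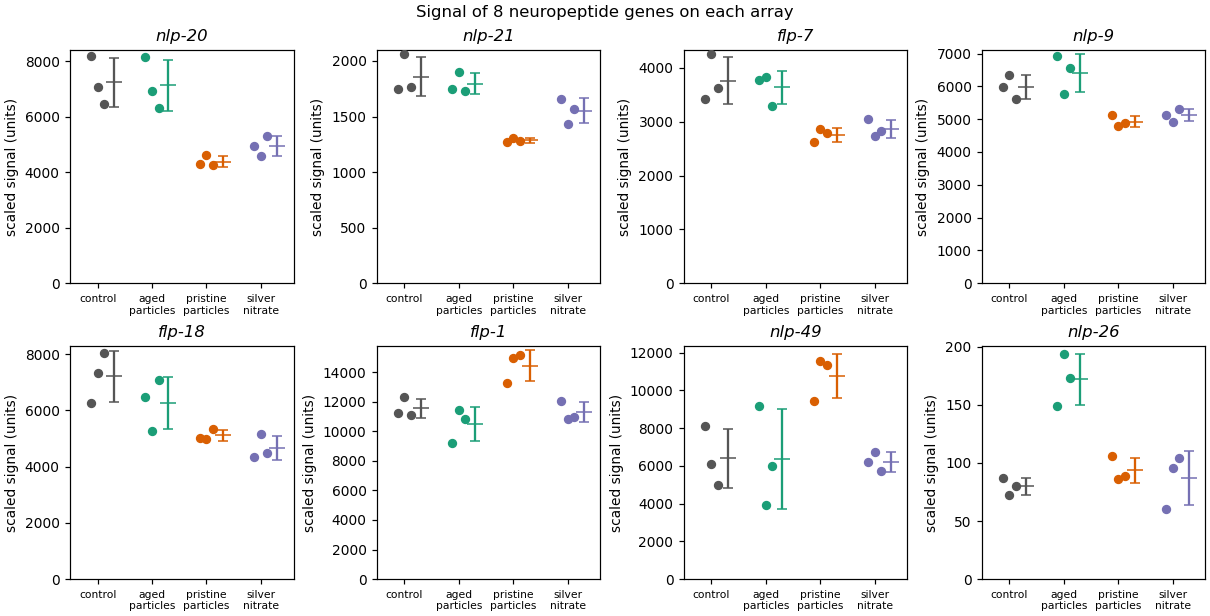
Signal of 8 genes on each of the 12 arrays, on linear axes that start at 0, with 3 arrays (points) for each of control, aged, pristine and silver nitrate and, beside them, the group mean with its SD. For nlp-20 and nlp-21 the pristine arrays lie below every control and aged array, and for nlp-26 the aged arrays, 149 to 194 units, lie above all others.

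Among genes acting on fat use and foraging, flp-18 and flp-7 were low with both pristine particles and silver nitrate. The flp-18 peptides are ligands of the receptors NPR-1, NPR-4 and NPR-5 and affect foraging and fat storage. It read 6265, 7337 and 8039.6 units in control, 6472, 5271 and 7079.6 with aged particles, 5022, 4999 and 5344 with pristine particles, and 4357, 5149.9 and 4489 with silver nitrate. Its aged arrays overlapped control, while all 6 arrays of the other exposures lay below every control array. The log2 difference was -0.62 ± 0.13 with silver nitrate (1.54-fold lower, adjusted p = 0.102), -0.49 ± 0.13 with pristine particles (adjusted p = 0.31) and -0.20 ± 0.13 with aged particles (adjusted p = 0.732). When only probe sets above the median brightness were tested, flp-18 passed with silver nitrate (adjusted p = 0.0421).

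The flp-7 peptides act from neurons on intestinal fat use through the receptor NPR-22. The gene read 3415, 4251 and 3622 units in control, 3780.1, 3838 and 3290.4 with aged particles, 2616, 2864 and 2798 with pristine particles, and 3052, 2732 and 2820.1 with silver nitrate. Here too control and aged arrays overlapped and the other exposures lay below both. On the log2 scale flp-7 differed by -0.44 ± 0.09 with pristine particles (adjusted p = 0.227), -0.39 ± 0.09 with silver nitrate (adjusted p = 0.143) and -0.05 ± 0.09 with aged particles. By contrast flp-21, which encodes the other well-known NPR-1 ligand, had overlapping groups throughout, from 2968 to 3996 units in control and from 2781 to 3564 over the exposed arrays, with log2 differences of -0.08, -0.06 and -0.15 for aged particles, pristine particles and silver nitrate.

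Genes linked to egg laying include nlp-3, whose peptides stimulate it, and nlp-7. They also include flp-10 and flp-17, whose peptides inhibit it through the receptor EGL-6. The flp-10 gene read 3048, 4199 and 2653 units in control, 2546, 2894 and 2466 with aged particles, 2155, 2167 and 2121 with pristine particles, and 2324, 2147 and 2215 with silver nitrate. Its control arrays spread widely, replicate 2 being the highest of all 12, yet the 6 pristine and silver nitrate arrays lay below every other array. The log2 differences were -0.59 ± 0.14 with pristine particles (adjusted p = 0.284), -0.54 ± 0.14 with silver nitrate (adjusted p = 0.172) and -0.30 ± 0.14 with aged particles (adjusted p = 0.648). In the alternatives tried these values reached their smallest size, -0.41 for pristine particles, -0.35 for silver nitrate and -0.11 for aged particles.

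The other EGL-6 ligand gene, flp-17, did not separate: its log2 differences were -0.19, 0.01 and -0.21, each with an SE of 0.19. For nlp-3 the log2 differences were -0.16 ± 0.10, -0.06 ± 0.10 and -0.04 ± 0.10, and the aged arrays, 3822, 3791 and 3401 units, lay below the control arrays, 3850.1, 4474 and 4014. For nlp-7 silver nitrate gave 5077, 4678 and 5392 units against 5835, 7456 and 6021 in control, with no overlap (log2 difference -0.34 ± 0.11, adjusted p = 0.262), and the other exposures overlapped control. Of the 4 egg-laying genes, flp-17 with pristine particles was the one case with a difference above 0.

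Among the 5 measured genes of locomotion and arousal, flp-1, flp-2, nlp-12, nlp-49 and flp-18 (given above), the directions were mixed. With pristine particles flp-1, nlp-12 and nlp-49 read above control, and flp-2 and flp-18 below it. The flp-1 peptides, made by the AVK interneurons among others, modulate locomotion. The gene read 11248, 12316 and 11077 units in control, 9241, 11436 and 10814 with aged particles, 13263, 14940.0 and 15129 with pristine particles, and 12074, 10845 and 10995 with silver nitrate. Its 3 pristine arrays lay above the other 9, which overlapped. The log2 difference with pristine particles was 0.32 ± 0.09 (adjusted p = 0.356), and the gene's other probe sets gave 0.27 and 0.36. With silver nitrate the brightest probe set gave -0.03 and those others 0.23 and -0.04.

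The nlp-49 gene, whose peptide raises arousal through the receptor SEB-3, read 9436, 11573 and 11324 units with pristine particles. Its control arrays read 8087, 6087 and 4995, its aged arrays 9177, 3936 and 5991, and its silver nitrate arrays 6187, 6744 and 5714. The pristine arrays lay above all others, although the control and aged arrays differed among themselves by a wide margin. The log2 difference with pristine particles was 0.78 ± 0.28 (1.71-fold higher, adjusted p = 0.5).

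The nlp-12 gene encodes a cholecystokinin-like peptide that acts on movement from the neuron DVA. With pristine particles it read 5357, 6621 and 6543 units, overlapping the control values of 5928, 6138 and 4083, and with aged particles 4539, 4179 and 3696. All aged arrays lay below all pristine and all silver nitrate arrays, the latter at 4644, 4717 and 5128. The aged minus pristine log2 difference was -0.58 ± 0.16 (adjusted p = 0.254). For the arousal gene flp-2 all groups overlapped, with log2 differences of -0.02, -0.12 and -0.06. Its other probe set gave -0.195, -0.24 and -0.18 in the same order.

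Quiescence genes were mixed in direction with both particle forms. The neuron ALA releases peptides of flp-13, flp-24 and nlp-8 in the sleep that follows cellular stress, and RIS releases flp-11 peptides in developmental sleep. The flp-24 gene read 7152, 8839 and 7549 units in control and 5949.9, 6644 and 5911 with aged particles, with no overlap. Its pristine arrays read 6513, 6695 and 7466 and its silver nitrate arrays 6258, 6164 and 7157, each group overlapping control in 1 array. The log2 difference with aged particles was -0.34 ± 0.10 (1.27-fold lower, adjusted p = 0.406), the smallest adjusted p of any flp gene in that comparison. The other ALA genes differed from control by 0.07, -0.26 and -0.08 (flp-13, SE 0.17) and by 0.00, -0.04 and -0.15 (nlp-8, SE 0.12) with aged particles, pristine particles and silver nitrate. For flp-11 the values were -0.09, 0.09 and -0.10 (SE 0.12), and for nlp-14, another ALA peptide gene, -0.14, -0.20 and -0.17 (SE 0.13). The sleep peptide gene nlp-22, which cycles with the larval moults, was too dim to compare: it read between 5.1 and 42.4 units, at or near the floor of 16 on several arrays.

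Genes linked to sensing gave a further low member. The nlp-1 peptide is released by the olfactory neuron AWC and takes part in adaptation to odour. It read 2067, 2653 and 2221 units in control, 2026, 2011 and 1886 with aged particles, 1566, 1906 and 1854 with pristine particles, and 1817, 1866 and 2088 with silver nitrate. Aged and pristine arrays lay below every control array, and 1 silver nitrate array overlapped control. The log2 differences were -0.22 ± 0.11, -0.38 ± 0.11 (adjusted p = 0.356) and -0.26 ± 0.11 in that order. The flp-6 gene, which acts in the thermosensory neuron AFD, gave -0.14, -0.19 and -0.27 (SE 0.13), with overlap in each exposure because control replicate 1 was low at 3880.5 units against 5458 and 5430.1 in the others.

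Other members with a known role had small differences. For nlp-40, secreted by the intestine to time defecation through AEX-2, the log2 differences were -0.01, -0.10 and -0.18 (SE 0.12) with overlapping groups. For nlp-47, which encodes a peptide related to gonadotropin-releasing hormone, they were -0.28, -0.22 and -0.20 (SE 0.15). Its control replicate 2 read 9164 units against 6154 and 6259 in the other controls, and the aged arrays, 5842, 5728 and 5836, lay below all 3.

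The YGGW-amide genes nlp-24, nlp-25 and nlp-26 are relatives of the antimicrobial genes that were left out, and 2 of the 3 were highest with aged particles. The nlp-26 gene read 86.9, 72.5 and 80.3 units in control, 149, 194 and 173 with aged particles, 106, 86.4 and 88.3 with pristine particles, and 60.3, 95.2 and 104.4 with silver nitrate. Its 3 aged arrays lay above the other 9, which overlapped. The log2 difference with aged particles was 1.10 ± 0.20 (2.15-fold higher, adjusted p = 0.195), the largest of any member in any exposure, and its adjusted p in the F test was 0.126.

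The nlp-25 gene read 315, 221 and 236 units in control, 473, 848 and 319.9 with aged particles, 304, 321 and 214 with pristine particles, and 252, 414 and 266 with silver nitrate. Its aged arrays lay above every control array, though they spread widely and the lowest of them lay below 1 pristine and 1 silver nitrate array. The log2 difference with aged particles was 0.99 ± 0.35 (1.98-fold higher, adjusted p = 0.51). The third gene, nlp-24, gave -0.29 ± 0.36 with aged particles, -0.54 ± 0.36 with pristine particles and -0.67 ± 0.36 with silver nitrate, with overlapping groups. The epidermal marker list had its highest median with aged particles too, at 0.33 on the log2 scale against -0.17 with pristine particles and 0.03 with silver nitrate, and its part in the values of these genes was not tested.

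Of the remaining members, nlp-67 was also highest with aged particles. It read 36.1, 73.7 and 67.1 units in control, 89.5, 99.9 and 99.1 with aged particles, 69.4, 65.4 and 58.4 with pristine particles, and 67.6, 54.9 and 55.3 with silver nitrate. The aged arrays lay above the other 9. The log2 difference with aged particles was 0.77 ± 0.24 (adjusted p = 0.43). Control replicate 1 was the lowest array, and the difference lay between 0.45 and 0.97 in the alternatives tried, among them the fits that left out 1 array each. With a floor of 64 signal units, nlp-67 passed the test of aged against pristine particles (adjusted p = 0.0255) and against silver nitrate (0.0149). That floor cuts into the values of this gene. It raised to 64 the readings of 36.1 in control, 58.4 with pristine particles, and 54.9 and 55.3 with silver nitrate. This narrows the spread within those groups, and its part in the smaller p was not tested.

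A set of members was low with aged particles as well as with the other silver forms. The nlp-2 gene, which encodes RPamide peptides, read 1231, 1617 and 1466 units in control, 1066, 958 and 1206 with aged particles, 929.5, 1071 and 1109.6 with pristine particles, and 1206, 1074 and 1209 with silver nitrate. All 9 exposed arrays lay below all 3 controls. The log2 differences were -0.41 ± 0.12 (adjusted p = 0.413), -0.47 ± 0.12 (adjusted p = 0.31) and -0.30 ± 0.12 (adjusted p = 0.37). The same complete separation held for nlp-99, which read 4791, 5266 and 5021 units in control and from 3455 to 4660.1 over the exposed arrays. Its log2 differences were -0.38 ± 0.11 (adjusted p = 0.405), -0.33 ± 0.11 (adjusted p = 0.439) and -0.34 ± 0.11 (adjusted p = 0.25). The gene's other probe set gave -0.50, -0.25 and -0.09 in that order, so it did not share the low silver nitrate value.

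Complete separation held again for flp-12, with 9157, 12518 and 10334 units in control and from 7652 to 9132 over the exposed arrays. Its log2 differences were -0.29 ± 0.11, -0.36 ± 0.11 and -0.33 ± 0.11, and its lowest control array lay just above its highest exposed array. The nlp-68 gene separated as well, with 635, 864 and 709.7 units in control, 627, 606 and 630.3 with aged particles, 448, 508 and 539 with pristine particles, and 566, 510.0 and 548 with silver nitrate. For nlp-68 the log2 differences were -0.23 ± 0.11 (adjusted p = 0.644), -0.56 ± 0.11 (adjusted p = 0.211) and -0.43 ± 0.11 (adjusted p = 0.157).

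Other members were low mainly with pristine particles and silver nitrate. The flp-5 gene read 7582, 8360.3 and 7527 units in control against 5109, 6732 and 6056 with pristine particles and 6178, 5879 and 6555 with silver nitrate. Those 6 arrays lay below every control and every aged array, the aged ones reading 6798, 7228 and 7381. The log2 differences were -0.40 ± 0.10 with pristine particles (adjusted p = 0.284) and -0.33 ± 0.10 with silver nitrate (adjusted p = 0.212). The nlp-15 gene gave nearly the same sizes, -0.40 ± 0.10 and -0.34 ± 0.10, both groups lying below every control array. The nlp-57 gene read 1635, 1590.5 and 1898 units in control, 1542, 1729.7 and 1401 with aged particles, 1007, 1219 and 931 with pristine particles, and 1534, 966 and 1435 with silver nitrate. Its pristine arrays lay below all controls and its silver nitrate arrays spread from the pristine to the aged range, with log2 differences of -0.70 ± 0.18 (adjusted p = 0.309) and -0.41 ± 0.18 (adjusted p = 0.412).

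With silver nitrate, nlp-81 was set apart from the other exposures. It read 2354, 3081 and 3076 units in control, 2798, 2301 and 2377 with aged particles, 2587, 2481 and 2763 with pristine particles, and 1957, 2081 and 2035 with silver nitrate. The silver nitrate arrays lay below the other 9, which overlapped, and the log2 difference was -0.48 ± 0.11 (1.39-fold lower, adjusted p = 0.142). The flp-15 gene had the same order on its brightest probe set, with 5158, 5432 and 5766 units in silver nitrate. These lay below the other 9 arrays, which read from 6220.3 to 8776 (log2 difference -0.41 ± 0.12, adjusted p = 0.212). Its other probe sets did not set silver nitrate apart. The brighter of them gave -0.26 with aged particles, -0.175 with pristine particles and -0.29 with silver nitrate. The dimmer, at a mean of 200.4 units, gave -0.21, 0.37 and -0.06. For flp-3 the difference was -0.28 ± 0.09 with silver nitrate and -0.25 ± 0.09 with pristine particles, both below every control array. For nlp-17 it was -0.45 ± 0.14 with silver nitrate (adjusted p = 0.247), again without overlap.

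The flp-14 gene was one of the steadiest members and was low with aged particles and silver nitrate but not with pristine particles. It read 1007, 953 and 919 units in control, 864, 892 and 876 with aged particles, 995, 962 and 1019 with pristine particles, and 836, 828 and 912 with silver nitrate. Aged and silver nitrate arrays lay below all control and pristine arrays. The log2 differences were -0.13 ± 0.05 (adjusted p = 0.581), 0.05 ± 0.05 and -0.16 ± 0.05 (adjusted p = 0.269). For flp-32 the values ran from 982 to 1987 units in control and from 519 to 1289 with aged particles, with a log2 difference of -0.64 ± 0.37. For flp-22 the difference was -0.36 ± 0.18, and for nlp-80 it was -0.36 ± 0.13 (adjusted p = 0.503), each with some overlap of aged and control arrays.

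Compared with each other, aged and pristine particles were the pair of silver forms with the most members at a small unadjusted p. Of the 76 members, 50 were higher with aged than with pristine particles and 24 lower, with a median log2 difference of 0.06, against -0.02 over all genes. At an unadjusted p under 0.05, 14 were higher (12 nlp, 2 flp) and 5 lower, where 5.37% of all genes were higher and 5.22% lower. The members with the smallest p were nlp-20 (0.70 ± 0.11 higher with aged particles on the log2 scale, adjusted p = 0.0833), nlp-21 (0.48 ± 0.08 higher, adjusted p = 0.0838), nlp-9 (0.38 ± 0.07 higher, adjusted p = 0.122) and flp-1 (-0.46 ± 0.09, lower with aged particles, adjusted p = 0.122). With the deposited scaling both nlp-20 and nlp-21 passed the test between these forms (adjusted p = 0.0452 and 0.0373), as they did after quantile normalisation (0.0491 and 0.0483). The signals of nlp-9 were 6924, 5782 and 6547 units with aged particles, 5124, 4779 and 4880.2 with pristine particles, 5141, 4925 and 5299 with silver nitrate and 5974, 6336 and 5604 in control. Those of pristine particles and silver nitrate lay below all others. The gene's other probe set did not share this pattern: against control it gave -0.42 with aged particles, -0.46 with pristine particles and -0.38 with silver nitrate.

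Against silver nitrate, aged particles gave higher values of 55 members and lower values of 19, with a median log2 difference of 0.10 (-0.00 over all genes). At an unadjusted p under 0.05, 11 were higher and 0 lower, where 5.81% of all genes were higher and 5.3% lower. The members with the smallest p were nlp-26 (1.02 ± 0.20, adjusted p = 0.0988), nlp-20 (0.52 ± 0.11, adjusted p = 0.129), nlp-9 (0.32 ± 0.07, adjusted p = 0.149) and flp-7 (0.34 ± 0.09, adjusted p = 0.215). All 4 were higher with aged particles on every array.

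Pristine particles and silver nitrate were the closest pair, with 41 members higher and 33 lower with pristine particles. At an unadjusted p under 0.05, 5 were higher and 1 lower, where 5.59% of all genes were higher and 4.22% lower, so the member counts are few on both sides. The genes with the smallest p were flp-14 (0.21 ± 0.05 higher with pristine particles, adjusted p = 0.259), flp-1 (0.35 ± 0.09, adjusted p = 0.271), nlp-21 (-0.27 ± 0.08, adjusted p = 0.323) and nlp-81 (0.37 ± 0.11, adjusted p = 0.356). Another flp-1 probe set was alike in both forms against control, at 0.27 with pristine particles and 0.23 with silver nitrate. The 3 comparisons between silver forms share arrays with each other and with those against control.

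The highest difference in each exposure belonged to an nlp gene, and the lowest to flp-32 with aged particles and silver nitrate and to nlp-20 with pristine particles. With silver nitrate no flp gene was above control, and flp differences ran from -0.73 (flp-32) to 0 (flp-23), while nlp differences ran from -0.67 (nlp-24) to 0.25 (nlp-25). With pristine particles flp differences ran from -0.59 (flp-10) to 0.32 (flp-1) and nlp differences from -0.72 (nlp-20) to 0.78 (nlp-49). With aged particles they ran from -0.64 (flp-32) to 0.08 (flp-27) and from -0.46 (nlp-90) to 1.10 (nlp-26). The class medians given above lay close to each other in each exposure, and the difference between classes was not tested, since genes are not replicates. On the arrays themselves, silver nitrate replicate 2 was the lowest of all 12 in 11 of 25 flp and 8 of 51 nlp, and pristine replicate 1 in 6 flp and 14 nlp.

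Some members are neighbours on a chromosome in the reference gene table, and neighbours did not share one pattern. In the run nlp-45, nlp-22, nlp-23 and nlp-2, the nlp-2 gene lay below control on all 9 exposed arrays, nlp-23 gave -0.28, 0.08 and -0.58 (SE 0.29) for aged particles, pristine particles and silver nitrate, and nlp-45 gave -0.28, -0.32 and -0.05 (SE 0.18). The pair nlp-9 and nlp-13 gave -0.28 and -0.15 with pristine particles. The pair flp-3 and flp-2 gave -0.25 and -0.12 there (-0.24 on the other flp-2 probe set), and nlp-90 and nlp-91 gave 0.30 and -0.24.

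The genes that make and release neuropeptides were mostly a little lower as well, with 0 of 18 called. These include the prohormone convertase egl-3, the carboxypeptidase egl-21, amidating enzymes and dense core vesicle proteins. Of the 18, 14 were lower with aged particles, 12 with pristine particles and 15 with silver nitrate, with medians of -0.17, -0.07 and -0.18. The dense core vesicle protein gene ida-1 read 2436, 3336 and 2801 units in control and 1968, 2243 and 1924 with pristine particles, with no overlap (log2 difference -0.47 ± 0.11, adjusted p = 0.264). The vesicle maturation gene tbc-8 read 647, 700.5 and 652 units in control and 479, 426 and 523 with silver nitrate (-0.49 ± 0.10, adjusted p = 0.115). The amidation gene pghm-1 was -0.26 ± 0.08 with aged particles (adjusted p = 0.458), its 3 aged arrays, 14194, 12715 and 14245 units, lying below the controls of 15426, 16712 and 17069.

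Among 99 neuropeptide receptor genes 0 were called, and 69, 67 and 75 were lower with aged particles, pristine particles and silver nitrate, with medians of -0.09, -0.08 and -0.11. The receptor gene with the smallest p was sprr-1, at 308, 364 and 349 units in control and 259, 256 and 241 with silver nitrate (-0.43 ± 0.08, adjusted p = 0.0865). With aged particles it was frpr-14 (-0.75 ± 0.15, adjusted p = 0.245) and with pristine particles ckr-1, a cholecystokinin receptor relative (-0.28 ± 0.07, adjusted p = 0.296). Of the neprilysin peptidases, a family that degrades peptides, 8, 8 and 9 of 25 were lower and 13, 14 and 13 higher. The medians were 0.02, 0.02 and 0.03, with 0 called. These counts include dim genes: 2 were at the floor on every array, and others, such as nep-23 and nep-9, had group means under 16 units. The brightest were mixed with silver nitrate: nep-11, nep-1, nep-26 and nep-2 were lower, and nep-17, nep-21 and nep-22 higher.

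General neuronal markers did not share the members' direction. Of the 13, 5, 5 and 6 were lower with aged particles, pristine particles and silver nitrate, the medians were 0.06, 0.01 and 0.01, and 0 were called. Their summed signal lay between 18322 and 20311 units in control, 18205 and 20548 with aged particles, 17619 and 20453 with pristine particles, and 18693 and 20482 with silver nitrate, so the groups overlapped. The marker with the smallest p was rgef-1, which read 145, 186 and 129 units in control, 72.7, 98.0 and 99.3 with aged particles and 84.6, 88.7 and 80.7 with silver nitrate (-0.77 ± 0.16, adjusted p = 0.25, and -0.84 ± 0.16, adjusted p = 0.0934). The 15 genes of transmitter synthesis and transport had medians of 0.01, -0.04 and -0.06. The 15 sensory neuron markers were lower in number, 11, 11 and 15, with medians of -0.14, -0.19 and -0.22 and 0 called, and osm-9 among them was at or near the floor on every array, at 2 to 27 units.

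Markers of other tissues also had medians away from 0, and their part in the member values was not tested. Of 17 germline markers 14, 15 and 15 were higher with aged particles, pristine particles and silver nitrate, with medians of 0.29, 0.57 and 0.42, 0 called, and none at the floor on every array. Their summed signal lay between 2222 and 3027 units in control, 2483 and 3104 with aged particles, 3163 and 3547 with pristine particles, and 3332 and 3786 with silver nitrate. On the control arrays their median distance from the control mean was 0.27, -0.34 and -0.06, so control replicate 2, highest for the neuropeptide genes, was lowest for germline markers. The 14 muscle markers had medians of 0.30, -0.14 and -0.14, and the 11 measured intestine markers 0.02, -0.03 and 0.21, with 0 called in both. The log2 distance between 3' and 5' signals of the array's own control genes, a measure of RNA integrity and labelling, was 0.99, 1.37 and 1.31 in control, 1.09, 1.34 and 1.42 with aged particles, 1.44, 1.14 and 1.10 with pristine particles, and 1.20, 1.12 and 1.27 with silver nitrate, and overlapped between groups.

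**Figure D4:**
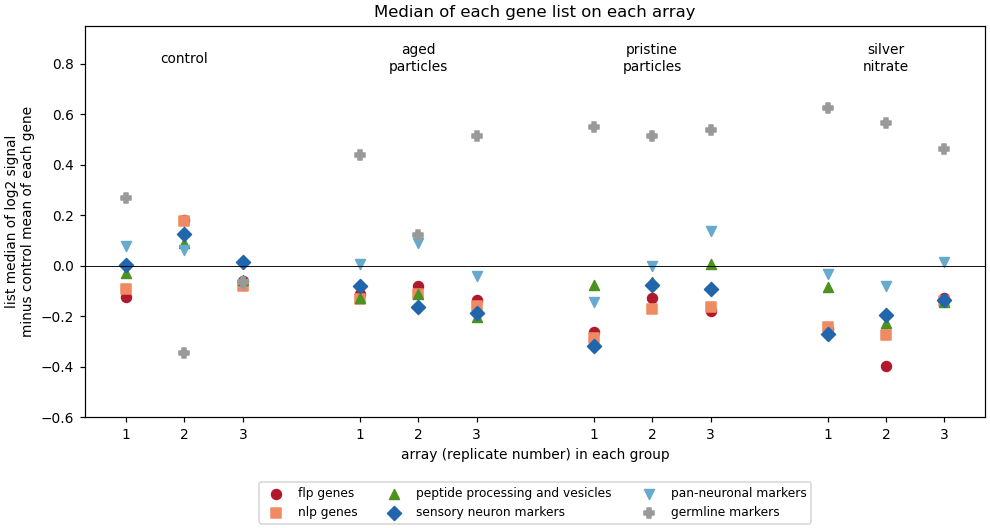
Median over each gene list (flp, nlp, peptide processing and vesicles, sensory neuron, pan-neuronal and germline markers) of log2 signal minus the gene's control mean, on each of the 12 arrays. The flp and nlp medians are near 0.18 on control replicate 2 and below 0 on every exposed array, the pan-neuronal markers stay between -0.14 and 0.14, and the germline markers are at -0.34 on control replicate 2 and above 0 on every exposed array.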

How the data were processed

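Whole-animal RNA (100 ng) of 4 groups of 3 samples was labelled with the Affymetrix IVT Express kit and hybridised to C. elegans arrays, per the labels' protocols. The authors deposited 1 linear signal intensity per probe set, 22625 on each array, already scaled between arrays as the values show. The summarisation method and software are not given in the sources used here. Each array was rescaled to a common median, which moved exposed against control arrays by -0.03, -0.03 and -0.07 on the log2 scale (aged particles, pristine particles, silver nitrate). Values under 16 units were raised to 16 and log2 was taken. The 77 array control probe sets were left out.

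A model of 4 group means was fitted over the 12 arrays with limma 3.58.1 in R 4.3.3, with empirical Bayes moderation, 6 contrasts between groups and an F test over the 3 exposures. Benjamini-Hochberg adjustment ran over 22548 probe sets, and the code was tested on simulated data. Probe sets were named from the platform annotation. All 76 symbols equal those of the reference gene table, which was used only for names and for neighbours. Of the 76 genes, 9 had several probe sets, in 0 cases with opposite signs at an unadjusted p under 0.05, and 20 were read from probe sets that can match related transcripts (suffix _s_at or _x_at), so their values may include those.

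The members and lists were chosen with earlier results of these data known. Genes named with values are, per exposure, the 6 flp and the 6 nlp members with the smallest p, the 6 smallest in the F test, the 4 smallest per pair of exposures, members with a listed role, and the 3 smallest in each related list. The chromosomal neighbours nlp-13, nlp-23, nlp-45, nlp-90 and nlp-91, the class extreme flp-27, and the dim flp-23 and nlp-39 were named outside that rule, after their values were seen. Alternatives changed the scaling, the floor, the dim-probe filter, the variance model, the arrays fitted, the probe set rule, a replicate block and each array left out in turn. Replicate numbers were checked for pairing: deviations of same-numbered arrays correlated at -0.10 to 0.09, so no pairing was used.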

Additional observations from a re-analysis of the deposited data

How the results depend on the processing

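The member medians against control kept their sign under every alternative tried, from -0.17 to -0.04 with aged particles, -0.26 to -0.10 with pristine particles and -0.28 to -0.14 with silver nitrate when arrays were left out, and after quantile normalisation they were -0.08, -0.17 and -0.12. The flp medians leaned most on control replicate 2: with single arrays left out they ran from -0.20 to 0 with aged particles and from -0.27 to -0.059 with pristine particles, the upper ends coming without that array.

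Counts of members called, 0 in every comparison as reported, became 2 between aged and pristine particles under the deposited scaling (nlp-20, nlp-21) and 2 under quantile normalisation (the same 2), 1 with a floor of 64 (nlp-67), 1 among probe sets above median brightness and 1 with trended, robust variances (nlp-20 in both). Between aged particles and silver nitrate 1 (nlp-67) was called with a floor of 64, and 0 to 1 with single arrays left out (1 without control replicate 1, nlp-67). With silver nitrate against control 1 (flp-18, -0.62) was called among brighter probe sets, where 184 of 11274 probe sets were called in place of 30. The F test called 2 under the deposited scaling, 1 with a floor of 64, 1 among brighter probe sets and 1 with trended variances. The causes were not tested. The brightness filter adjusted over fewer probe sets and also repeated the empirical Bayes moderation on the kept probe sets alone.

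With the replicate block the member medians stayed at -0.13, -0.20 and -0.21 and 0 members were called. Same-numbered arrays deviated together at most weakly, with a median correlation of 0.06 against -0.01 between differently numbered arrays. Of the 18 same-numbered pairs 0 were over 0.1, and 7 of 12 arrays were closest to their own number. Such correlations cannot show how the replicates were made, and the main fit used no pairing. For members named in a comparison against control, of 757 values in those comparisons under alternatives, 756 kept their direction and side of the threshold, 1 passed it (flp-18, above) and 0 reversed. Removing probe sets at the floor on all arrays, an alternative added after seeing the data, called 0 members against control.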
